A study of Solanum lycopersicum with 9 samples.

Results

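Gibberellins are growth hormones whose active forms are made in the last steps of a longer pathway. GA20ox enzymes carry out the successive oxidations that yield the immediate precursors, GA3ox enzymes turn these into active hormone, and GA2ox enzymes inactivate it. DELLA proteins are nuclear repressors of the gibberellin response, and transcripts of GA20ox and GA3ox genes are widely known as targets of feedback, being more abundant where gibberellin signalling is low. Described here are 5 such genes of tomato, chosen by identifier among the 23028 loci listed: GA20ox1 (Solyc03g006880), GA20ox2 (Solyc06g035530), GA20ox3 (Solyc11g072310), GA20ox4 (Solyc01g093980) and GA3ox2 (Solyc03g119910). The gene names go with the identifiers as chosen and were not checked against an annotation.

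Guard cells, the paired epidermal cells around the stomatal pore, were enriched from fully expanded leaves by blending and rinsing on a mesh, and their poly A RNA was sequenced. The 3 groups, each of 3 libraries, were the tomato cultivar M82 (sp-/sp), the DELLA loss-of-function mutant pro, and plants expressing the DELLA gain-of-function form pro∆17, both in M82. All plants shared 1 growth regime in a growth room, and the labels give no water-deficit treatment, plant age or sampling time for these libraries, no promoter for pro∆17 and no word on whether each library had its own plants. The spread behind every p-value is therefore that between libraries, part or all of which could be technical. Of the pro∆17 libraries, 2 and 3 bear another number in their titles than in the genotype label, which was followed.

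The libraries held 14826561 to 20445679 reads over the listed loci. All 3 loci taken as guard cell markers were read in every library, with a summed normalized count of 2138 to 2650 in M82, 2096 to 2962 in pro and 2172 to 2305 in pro∆17. The loci taken as markers of mesophyll encode Rubisco small subunits and chlorophyll-binding proteins. Whether reads at these loci came from mesophyll cells was not tested. All 10 of them were read in every library. Their sum was 299440 to 410661 in M82, 148233 to 468722 in pro and 318020 to 353854 in pro∆17, so the groups overlapped in it. The phloem marker locus lay between 11118 and 27084 and the epidermal wax locus between 7411 and 19032 in all libraries, and the trichome locus was not among the loci listed. These marker loci were taken from general knowledge. The transcript of PROCERA (Solyc11g011260), the tomato DELLA gene, had a normalized count of 3837 ± 90.8 in M82, 3750 ± 837 in pro and 6187 ± 1094 in pro∆17 (mean ± SD, n = 3), and passed in no comparison by limma over all 9 libraries. It passed for pro∆17 against M82 in a fit to those 6 libraries (limma adjusted p = 0.0434), and for pro∆17 against pro without pro library 2 (limma adjusted p = 0.0188) and with DESeq2 (adjusted p = 0.00996). That level does not check the label of pro, because it does not measure DELLA activity.

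GA20ox1 and GA3ox2 had the same order of groups in all 9 libraries: every pro library was below every M82 library, and every M82 library was below every pro∆17 library. GA20ox2 had its highest values in pro∆17 but overlapped between pro and M82, GA20ox3 was close to unread outside pro∆17 except in 1 pro library, and GA20ox4 was read at a few counts in all groups alike. A complete ordering of the libraries as pro, M82, pro∆17 was found at 1.25% of the 20951 loci tested. Between the opposite mutants GA20ox1 and GA3ox2 rose about equally and both passed the test over all loci. In the comparisons of each line with M82 no member passed by limma fitted to all 9 libraries, though some passed under other settings given below.

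**Figure D1:**
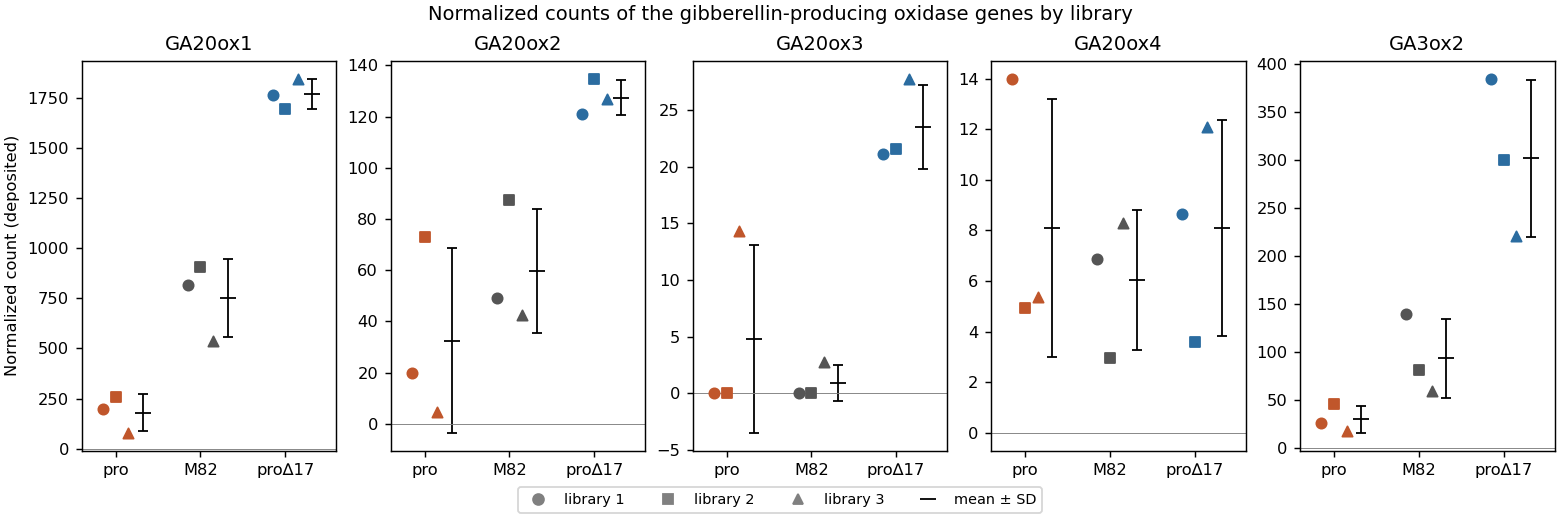
Deposited normalized count (vertical axis, each panel with its own linear scale) of the 5 genes in the 3 libraries of pro, M82 and pro∆17. Symbols mark the library number and the black bar the mean ± SD. GA20ox1 and GA3ox2 form 3 separate groups of points, while GA20ox4 overlaps throughout between 2.94 and 14 normalized counts.

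The first of the precursor-making oxidases, GA20ox1, was read at 818, 904 and 534 normalized counts in M82 libraries 1, 2 and 3. In pro it was at 200, 260 and 78.9, and in pro∆17 at 1763, 1694 and 1844. The 3 groups did not overlap, the highest pro library standing below the lowest M82 library and the lowest pro∆17 library 1.87 times above the highest M82 library. Group levels were 752 ± 193 in M82, 180 ± 92.2 in pro and 1767 ± 74.9 in pro∆17 (mean ± SD, n = 3). In these bulk samples, fewer cells that make a transcript and less of it per cell cannot be told apart.

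On the log2 scale of normalized count plus 1, GA20ox1 rose by 3.45 ± 0.39 (SE) from pro to pro∆17 and passed (limma, p adjusted by Benjamini-Hochberg over all loci, adjusted p = 0.00271). The ratio of the group means was 9.84. The call was kept under all 21 settings tried, with a log2 fold change of 2.95 to 3.80. Against M82, GA20ox1 had a log2 fold change of -2.19 ± 0.39 in pro (adjusted p = 0.0967) and of 1.27 ± 0.39 in pro∆17 (adjusted p = 0.383), neither of which passed. The change in pro passed with DESeq2 (adjusted p = 3.95e-05), without pro library 2 (0.0139) and without pro library 3 (0.0243). That in pro∆17 passed when only the 6 libraries compared were fitted (adjusted p = 0.0147) and without pro library 3 (0.0298).

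GA3ox2, the enzyme of the activating step, had 139, 81.5 and 59.1 normalized counts in M82 libraries 1, 2 and 3. The pro libraries stood at 26, 45.5 and 17.9 and the pro∆17 libraries at 385, 300 and 221. As with GA20ox1 the groups did not overlap, though here the gap between pro and M82 was narrow, 45.5 against 59.1. The group levels were 93.3 ± 41.4, 29.8 ± 14.2 and 302 ± 81.9 in M82, pro and pro∆17 (mean ± SD, n = 3). GA3ox2 rose by 3.36 ± 0.41 (log2, SE) from pro to pro∆17, a ratio of means of 10.1 (limma adjusted p = 0.00394), and passed under all 21 settings.

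Relative to M82, the log2 fold change of GA3ox2 was -1.62 ± 0.41 in pro (limma adjusted p = 0.367) and 1.74 ± 0.41 in pro∆17 (adjusted p = 0.210). DESeq2 called both (adjusted p = 0.0249 and 0.00611). With limma, the first passed without pro library 2 (adjusted p = 0.0329) and the second in a fit to just M82 and pro∆17, its own 6 libraries (adjusted p = 0.0350).

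GA20ox2 was read at 49.1, 87.3 and 42.5 normalized counts in M82 libraries 1, 2 and 3, at 20, 73.1 and 4.48 in pro, and at 121, 135 and 127 in pro∆17. All pro∆17 libraries lay above all others, whereas pro library 2 fell inside the M82 range and pro libraries 1 and 3 below it. The pro values spanned a ratio of 16.3 between the highest and lowest library, against 1.12 in pro∆17. From pro to pro∆17 the log2 change was 2.65 ± 0.77 (limma adjusted p = 0.108). Relative to M82 it was -1.50 ± 0.77 in pro (adjusted p = 0.716) and 1.15 ± 0.77 in pro∆17 (adjusted p = 0.857). Without pro library 2 the first had an adjusted p of 0.00549 and the second of 0.0444, the third passing under no setting. The log2 ratios of the group means of GA20ox2 were smaller in size, at 1.97, -0.87 and 1.10 in the same order.

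GA20ox3 was nearly silent in M82, with no read in libraries 1 and 2 and 3 reads in library 3. In pro, libraries 1 and 2 had no read and library 3 had 16, and pro∆17 had 22, 24 and 23 reads in libraries 1, 2 and 3. In normalized counts pro library 3 stood at 14.3 and the pro∆17 libraries at 21.1, 21.6 and 27.8, above all others. Over the groups, 69 reads in pro∆17 against 3 in M82 gave a ratio of 23.0 after scaling, with a 95% exact binomial interval of 7.53 to 114. That interval pools the reads of a group and covers counting error only, leaving out the spread between libraries. It may understate even the counting error, because PCR copies of a molecule can be counted more than once.

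GA20ox3 got through the filter on low values by its pro∆17 libraries alone, so its tests against pro∆17 favour the direction that let it in and are given as descriptions. At this depth GA20ox3 passed limma's test in no comparison, with log2 fold changes of 3.96 ± 1.04 for pro∆17 against M82 (adjusted p = 0.284), 3.29 ± 1.04 for pro∆17 against pro (adjusted p = 0.135) and 0.67 ± 1.04 for pro against M82 (adjusted p = 0.825). The values depended on pro library 3: without it the adjusted p was 0.0308 for pro∆17 against M82 and 0.00900 for pro∆17 against pro, and the log2 fold change of pro against M82 turned to -0.64 (adjusted p = 1). For pro∆17 against M82 a fit to its own 6 libraries gave an adjusted p of 0.0182. As a gene at or near 0, it has a fitted fold change that moves with the pseudocount, from 2.29 with 5 to 6.26 with 0.1 for pro∆17 against M82.

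GA20ox4 had 3 to 14 reads per library and was left out by the filter on low values. It was at 6.85, 2.94 and 8.3 normalized counts in M82 libraries 1, 2 and 3, at 14, 4.94 and 5.38 in pro, and at 8.63, 3.59 and 12.1 in pro∆17, so every pair of groups overlapped. Group sums of 18, 25 and 23 reads in M82, pro and pro∆17 gave a ratio of 1.28 for pro∆17 against M82, with an exact interval of 0.658 to 2.51. Such an interval, from reads pooled over libraries, covers counting error only and is not a limit of detection. These few reads do not tell apart the ratios within it. With no filter, its log2 fold changes in limma were 0.33, 0.34 and 0.01 for pro against M82, pro∆17 against M82 and pro∆17 against pro.

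Counted together, 2 of the 4 members tested were higher in pro∆17 than in pro by limma, where 2.19% of all loci were called higher and 3.4% in either direction. EdgeR and DESeq2 also called 2, against 3.16% and 8.83% of all loci, and 4 had an unadjusted p under 0.05 (18.1%). The median log2 fold change of the 4 was 3.33, and 0.01 over all loci. Counts and medians that include GA20ox3 are descriptions too.

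In pro against M82, 0 of 4 passed by limma (0.21% of all loci) and 0 by edgeR (0.181%), while 2 had an unadjusted p under 0.05 (6.83%) and DESeq2 called 2 (0.873%). Without pro library 2 limma called 3 (3.66%), and without pro library 3 it called 1 (0.215%). The median of the 4 was -1.56, with 3 negative, and that of all loci 0.00. In pro∆17 against M82, 0 of 4 passed by limma (0.119%) and 0 by edgeR (0.0811%), while 3 had an unadjusted p under 0.05 (7.79%) and DESeq2 called 1 (1.56%). A fit to the 6 libraries of M82 and pro∆17 called 3 (2.08%) and leaving out pro library 3 gave 2 (0.95%). All 4 changes were positive, with a median of 1.5 against -0.01 over all loci. Leaving out pro library 2 or pro library 3 gave 3 called members in pro∆17 against pro, where 15.3% and 5.39% of all loci were called. A block for replicate number gave 0, 0 and 2 in the order pro against M82, pro∆17 against M82 and pro∆17 against pro, against 0.162%, 0.0573% and 4.25% of all loci. The 3 comparisons share libraries, so their counts are not independent of each other.

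**Figure D2:**
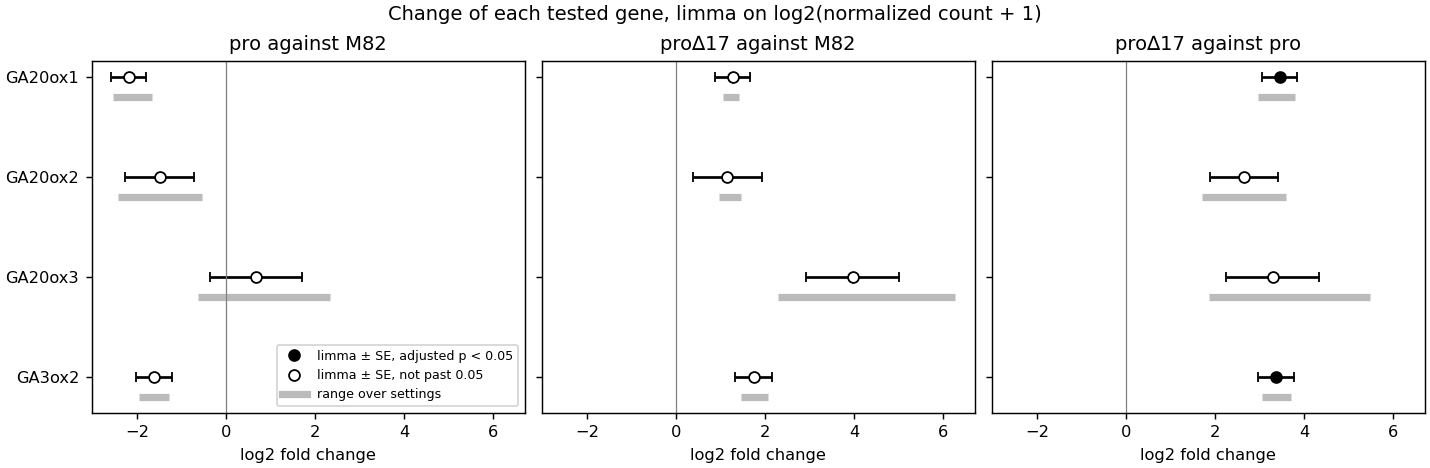
Log2 fold change (horizontal axis) of the 4 tested genes in the 3 comparisons, with limma's value ± SE and, in grey, the range over the settings tried. Filled points passed adjusted p 0.05, which only GA20ox1 and GA3ox2 did, in pro∆17 against pro. The grey bar of GA20ox3 crosses 0 in pro against M82.

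Counting groups that did not overlap, 2 of 4 tested members were lower in every pro library than in every M82 library (4.57% of all loci) and 4 of 4 were higher in every pro∆17 library than in every M82 library (10.5%). The 4 were also higher in every pro∆17 library than in every pro library (11.7%). Both counts with pro∆17 are descriptions, because GA20ox3, 1 of the 4, passed the filter by its pro∆17 libraries alone. GA20ox4, left out by the filter, overlapped in every pair of groups.

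The step from pro to M82 and the step from M82 to pro∆17 were set against each other in the same fit. GA3ox2 had steps of like size (second minus first, 0.11 ± 0.71, limma adjusted p = 0.987). For GA20ox1 the difference was -0.92 ± 0.68, the step between pro and M82 being the longer in the estimate, and for GA20ox2 it was -0.35 ± 1.34. GA20ox3 had 4.64 ± 1.80, with the change on the side of pro∆17. It got through the filter by its pro∆17 libraries alone, which favours a positive difference here. The step difference of GA20ox3 and its p-value are therefore descriptions. By limma 0 of 4 passed (adjusted p = 0.968 to 0.987, with 0.0907% of all loci called), and GA20ox3 had the 1 unadjusted p under 0.05 (3.01% of all loci). EdgeR called 0 (0.0525%) and DESeq2 0 (0.31%). The standard errors leave room for sizeable differences between the steps.

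Within a library, the ratio of reads between 2 members does not depend on the scaling. The log2 ratio of GA20ox1 to GA3ox2 was 3.07 ± 0.47 in M82, 2.53 ± 0.40 in pro and 2.59 ± 0.44 in pro∆17 (mean ± SD, n = 3), and its ranges overlapped between groups. From pro to pro∆17 the ratio of these genes moved by less than its spread between libraries. The log2 ratio of GA20ox1 to GA20ox2 was 3.69 ± 0.34, 3.10 ± 1.17 and 3.79 ± 0.12 in the same order. In pro it ran from library 2, with 263 reads of GA20ox1 to 74 of GA20ox2, to library 3, with 88 to 5. Gene length was not taken into account, so these ratios compare groups and not the levels of the genes.

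GA20ox1, GA20ox2 and GA3ox2 varied least in pro∆17. The coefficient of variation of GA20ox1 was 4.24% there, 25.7% in M82 and 51.4% in pro, and that of GA20ox2 was 5.48%, 40.6% and 111%. GA3ox2 varied more in pro∆17, at 27.1%, with 44.4% in M82 and 47.5% in pro. GA20ox4, at few reads, varied least in M82, at 46%, with 63% in pro and 52.7% in pro∆17. Loci as a whole had medians of 9.82% in pro∆17, 14.6% in M82 and 25.2% in pro, so the order of the groups was not particular to these genes.

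In pro, GA20ox1, GA20ox2 and GA3ox2 were highest in library 2 and lowest in library 3, which held the lowest value of all 9 libraries at each of the 3 genes. The same order within pro was found at 28.9% of the loci tested, and library 3 was the lowest of the 9 at 30.4%. GA20ox3 went the other way, with its only pro reads in library 3. The mesophyll sum had that order too, at 289253, 468722 and 148233 in pro libraries 1, 2 and 3. A dehydrin locus, of a protein family made in drying tissue, had the reverse, at 331, 7.91 and 35710. The phloem locus (19044, 11118 and 27084) and the wax locus (12599, 9871 and 19032) were in the same reverse order in pro. In M82, GA20ox1 and GA20ox2 were highest in library 2 and lowest in library 3, as was the mesophyll sum (356590, 410661 and 299440 in libraries 1, 2 and 3), and the dehydrin locus was highest in library 3 (12.6, 38.3 and 174). GA3ox2 departed from the mesophyll order in M82, being highest in library 1 and lowest in library 3. The part of these differences in the members' values was not tested.

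**Figure D3:**
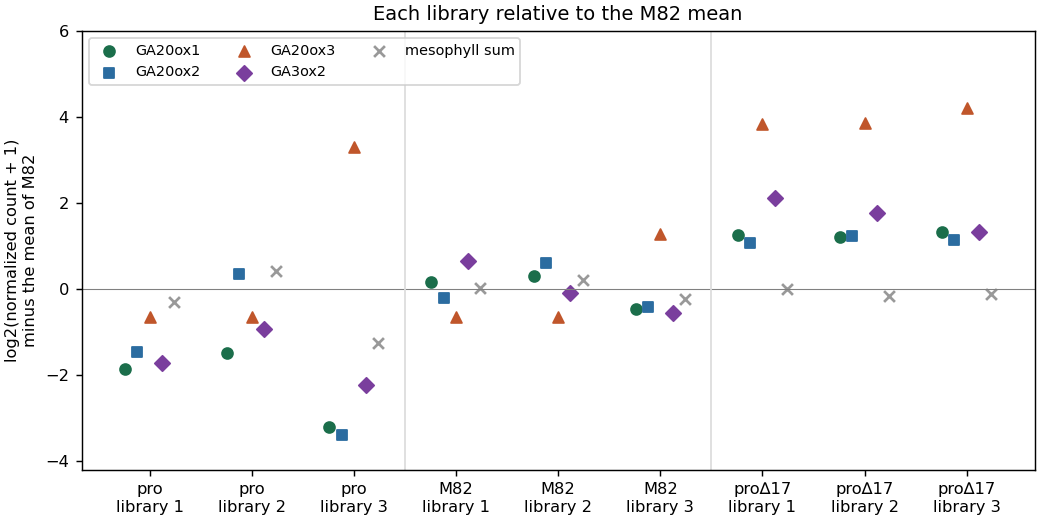
Log2 of normalized count plus 1 in each library, less the mean of M82 (vertical axis), for the 4 tested genes and for the summed mesophyll markers. Pro library 3 holds the lowest points of GA20ox1 (-3.20), GA20ox2 (-3.40) and GA3ox2 (-2.23) and the highest pro point of GA20ox3 (3.30).

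Other loci of the pathway were taken by identifier as lists, and no difference between lists was tested. Of 4 early synthesis loci, which act before GA20ox, 3 were tested and 0 passed in any comparison by limma or edgeR. DESeq2 called 1 of them lower in pro∆17 than in pro. Their median log2 fold change was -0.28 in pro∆17 against pro. The list of GA2ox loci, the inactivating enzymes, had 8 entries, of which 6 were tested. In pro∆17 against pro, 1 was lower by limma and by edgeR and 2 by DESeq2, 4 of 6 changes were negative and the median was -0.57. Of 5 perception loci, receptors and DELLA signalling components with PROCERA among them, 2 were higher in pro∆17 than in pro by limma and by edgeR, 3 by DESeq2, and the median was 0.73. The signs of the perception list ran as those of most members did, with 4 of 5 negative in pro against M82 and 5 of 5 positive in pro∆17 against M82. PROCERA, the gene altered in these lines, is counted in both, at -0.06 and 0.68, and among the 3 DESeq2 calls. Whether its reads in pro∆17 came from the added form was not tested. Over all loci limma, edgeR and DESeq2 called 3.4%, 3.16% and 8.83% in pro∆17 against pro. Against M82, limma called 0 loci of these lists in either line (0.21% of all loci in pro and 0.119% in pro∆17), and edgeR called 0 (0.181% and 0.0811%). DESeq2 called 1 GA2ox locus higher in pro (0.873% of all loci called) and 1 perception locus higher in pro∆17 (1.56%). An unadjusted p under 0.05 by limma was found in pro against M82 at 0 early synthesis, 1 GA2ox and 1 perception loci (6.83% of all loci), and in pro∆17 against M82 at 1, 1 and 3 (7.79%). The list also named 1 other GA3ox locus, which was not among the loci listed in the table.

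**Figure D4:**
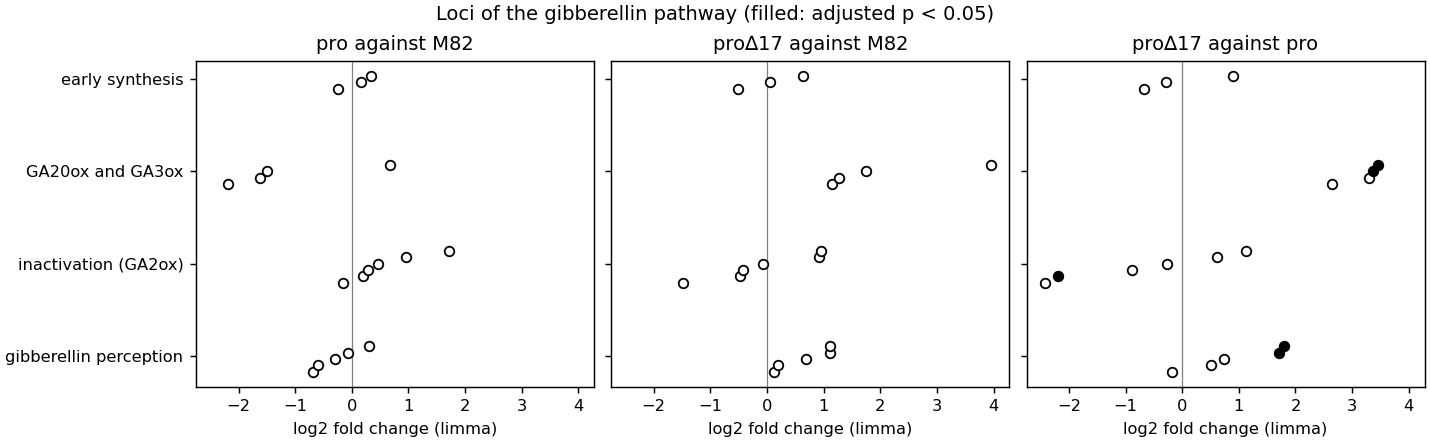
Limma's log2 fold change (horizontal axis) of each tested locus of early synthesis, of the GA20ox and GA3ox genes, of GA2ox inactivation and of perception, in the 3 comparisons. Filled points passed adjusted p 0.05. In pro∆17 against pro the 4 GA20ox and GA3ox points lie between 2.65 and 3.45, and those of the other lists between -2.43 and 1.79.

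The loci most like each member over the 9 libraries, by Pearson r of log2 normalized counts among 19246 loci, are given as a description. They carry no name in the sources used here. The 9 libraries fall into 3 groups, so shared group levels raise r. A shared order of libraries within a group raises it too. The order of the pro libraries at GA20ox1, GA20ox2 and GA3ox2 was found at 28.9% of the loci tested. The part of each in these r values was not tested. GA20ox1 was closest to Solyc07g062140 (r = 0.989), at 2701 ± 468 in M82, 1591 ± 500 in pro and 4094 ± 47.5 in pro∆17, and to Solyc03g096380 (r = 0.986). GA3ox2 was closest to Solyc07g032490 (r = 0.992), at 2699 ± 482, 1415 ± 382 and 5615 ± 940 in the same order, and to Solyc07g049560 (r = 0.984), at 1175 ± 383, 439 ± 139 and 2422 ± 99.8. GA20ox2 was closest to Solyc02g070000 (r = 0.996) and Solyc05g012510 (r = 0.993), and GA20ox3 to Solyc03g119305 (r = 0.999) and Solyc01g109460 (r = 0.981). An r of at least 0.95 was reached by 68 loci with GA20ox1, 53 with GA3ox2, 163 with GA20ox2 and 19 with GA20ox3.

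The authors' deposited table also lists a log2 fold change per locus. For GA20ox1 in pro against M82, and for GA3ox2 in both comparisons with M82, it does not follow from the counts in the same row. In the authors' deposited table GA20ox1 stands at -7.725 for pro against M82 (adjusted p = 1.52e-10), where the log2 ratio of its group means is -2.07. GA3ox2 stands there at -3.652 in pro against M82 (adjusted p = 3.81e-05) and at 2.655 in pro∆17 against M82 (adjusted p = 0.00902), where the log2 ratios of its means are -1.65 and 1.69. GA20ox1 in pro∆17 against M82 is deposited at 1.233, which matches its log2 ratio of 1.23. For pro∆17 against pro the deposited values of GA20ox1 and GA3ox2, 3.3 and 3.346, match their ratios of 3.30 and 3.34. All deposited values of GA20ox2, GA20ox3 and GA20ox4 lay within 0.5 of their ratios.

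The mismatch went beyond these genes. Among loci that the authors' deposited table calls at adjusted p 0.05 with a log2 fold change of at least 1 in size, and with group means of at least 5, 68 of 100 in pro against M82 and 92 of 154 in pro∆17 against M82 were off by over 0.5. The count was 0 of 878 in pro∆17 against pro. Of the other loci with such means, 0 of 20993, 20994 and 20149 were off in these comparisons. The file order was read over all loci called in this way, whatever their group means. Their deposited positive changes fell or stayed level at 45 of 46 steps in pro against M82 and at 81 of 86 in pro∆17 against M82. In pro∆17 against pro they did so at 265 of 539 steps. The negative ones rose or stayed level at 75 of 80, 81 of 84 and 231 of 472 steps. The deposited fold changes and p-values against M82 were therefore not used for any member, and all tests above rest on the deposited counts.

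**Figure D5:**
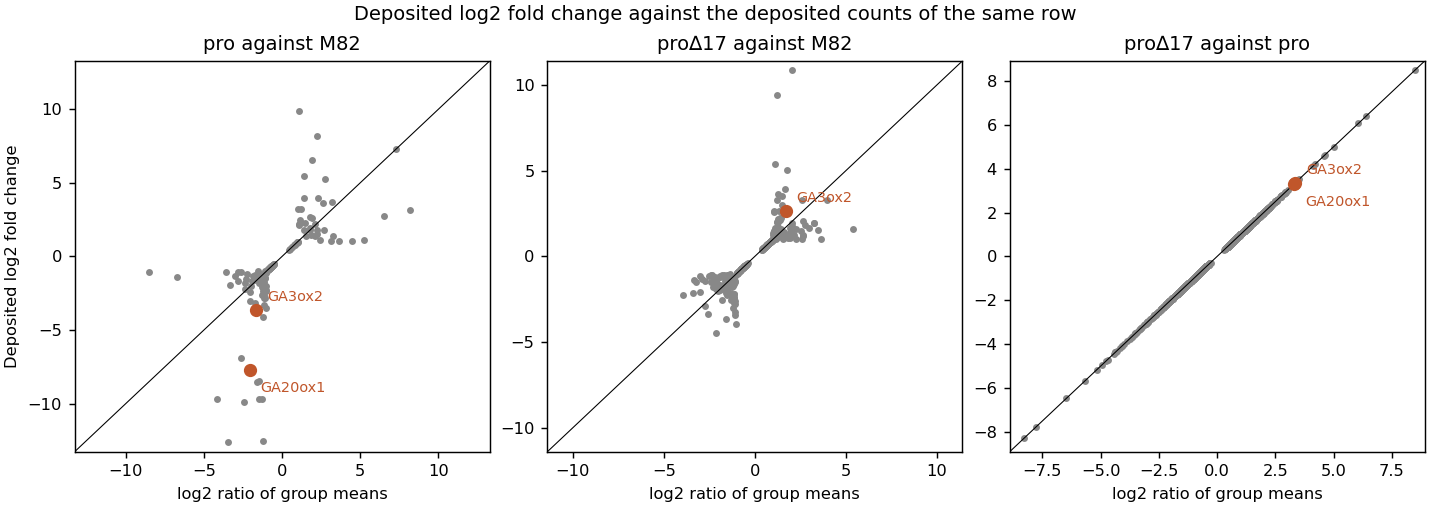
Deposited log2 fold change (vertical axis) against the log2 ratio of the group means of the same row (horizontal axis), for loci called at adjusted p 0.05 in the authors' deposited table with group means of at least 5. Points lie on the line of equality in pro∆17 against pro and scatter off it in both comparisons with M82, with GA20ox1 at -7.725 against -2.07 in pro against M82.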

How the data were processed

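Cutadapt, STAR 2.4.2a, HTSeq and DESeq2 are named, with no order, per the submitters' processing notes. Not given in the sources used here were build, annotation and strand setting, so near-identical, overlapping and antisense genes cannot be told apart. The deposited table holds, per the file headers, normalized counts (a signal, rounded to 2 decimals) for 23028 loci in 9 libraries. For each of 3 comparisons the authors also deposited a log2 fold change, a p-value and its adjusted form. The deposited p-value column of pro∆17 against M82 has a cell above 1 and was not used as such. In every library 100.0% of values were whole multiples of 1 step within 0.006, which gave whole reads.

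With R 4.3.3, limma 3.58.1 (trend option on) was fitted to log2 of the deposited normalized count plus 1, over 9 libraries and 20951 loci kept by edgeR's expression filter, with Benjamini-Hochberg adjustment over all loci and a two-sided threshold of 0.05. The added 1 makes fitted fold changes of low genes smaller. The fit averages logs, so its fold changes can also be larger in size than the log2 ratio of group means. That was so at GA20ox2, with 2.65 against 1.97 for pro∆17 against pro. EdgeR 4.0.16 and DESeq2 1.42.0 on the recovered reads were alternatives, as were other pseudocounts, filters and scalings, a replicate block and leaving out single libraries. The fits were tested on simulated counts with known changes.

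All 5 members are named in full. For each that passed the filter, the 2 loci of highest r were also named, from those with a mean of at least 1 CPM. Members and lists were chosen with earlier results of these data known, and list loci and their roles come from general knowledge without an annotation.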

Additional observations from a re-analysis of the deposited data

How the results depend on the processing

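In pro∆17 against pro, 2 members passed under every setting tried, 3 when pro library 2 or pro library 3 was left out. The third was GA20ox2 without pro library 2 and GA20ox3 without pro library 3. Counts given here that include GA20ox3 are descriptions, because of how it passed the filter. In pro against M82 the count of members was 0 in limma over all 9 libraries, 2 with DESeq2, and 0 to 3 with single libraries left out. In pro∆17 against M82 it was 0, then 1 with DESeq2, 3 with only the 6 libraries compared, and 0 to 2 with single libraries left out. Adding the replicate number as a block left counts of 0, 0 and 2, and 0 for the step difference. Same-numbered libraries deviated together in part (correlations of 0.022 to 0.523, and 8 of 9 libraries correlated best with their own number). The main fit held no block because the labels do not state that the numbers pair samples. Whether the numbers mark samples handled together was not tested. The step difference of GA20ox2, -0.35, changed sign with edgeR (0.22 with TMM, 0.21 with DESeq2 size factors) and DESeq2 (0.22), and ranged from -1.28 to 0.60 without single libraries, that of GA3ox2 from -0.45 to 0.78. Without single libraries, pro against M82 ranged from -0.64 to 1.33 for GA20ox3 and from -0.20 to 0.13 for PROCERA. The causes were not tested. Depth limits GA20ox3 and GA20ox4, with at most 24 and 14 reads in a library.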
